A study of Mus musculus with 10 samples.

Results

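The 8 genes described here belong to the death receptor and caspase pathway: the receptor genes Tnfrsf10b, Fas and Tnfrsf1a, the adaptor and kinase genes Fadd and Ripk1, the inhibitor gene Cflar, and the initiator caspase genes Casp8 and Casp9. They were chosen by name from a table of 42465 gene models, each name matched 1 model, and all 8 were among the 15156 genes with at least 0.5 FPKM in at least 5 of 10 libraries. FPKM counts sequenced fragments relative to the length of the gene and the size of the library, and only genes past that minimum were tested. RNA came from mouse neural tube explants, taken at embryonic day 9.5 and cultured for 4 days, which contained neural crest cells. The groups were wild type (WT, 5 libraries) and Ednrb-/- (5 libraries, labelled as homozygous mutants of the gene of endothelin receptor type B), described as biological replicates. Explants of both genotypes grew in DMEM with L-glutamine and gentamicin, to which 10% fetal bovine serum and EDN3 (20 nM), a peptide that binds this receptor, were added. The labels do not give the strain, the deleted part of Ednrb, the number of embryos behind a library or whether explants were pooled.

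Death receptors are members of the tumour necrosis factor receptor superfamily that carry a death domain in the cytoplasm. Bound by FAS ligand or TRAIL, FAS and the TRAIL receptor recruit FADD, which in turn gathers caspase-8, and caspase-8 then activates the executioner caspases directly or, through BID, by way of mitochondria. TNFR1, the product of Tnfrsf1a, first assembles a complex with TRADD and RIPK1 that drives NF-kB, and only a later complex engages FADD and caspase-8. CFLAR, also called c-FLIP, is a relative of caspase-8 without protease activity that limits or tunes its activation, while caspase-9 is started on the apoptosome by cytochrome c released from mitochondria.

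The targeted gene Ednrb was lower in every Ednrb-/- library than in any WT library, with 52.3 ± 7.16 FPKM in WT and 7.15 ± 3.41 FPKM in Ednrb-/- (SD, n = 5 each). Its transcript was still present in every Ednrb-/- library, at 2.34 to 11.7 FPKM and 161 to 615 reads. Reads worked back from the FPKM values came to between 13022266 and 19532570 per library. Of the Ednrb-/- libraries, replicates 2 and 3 stood apart: they held 191 and 224 genes with exactly 1 read, where the other 8 libraries held between 986 and 2421, and they had 16399 and 17895 genes above 0 against 20260 to 23240 in the others. Ednrb-/- replicates 1 and 5 also lay below every WT library, with 1151 and 986 genes at 1 read against 1899 to 2421 in WT. They had 20605 and 20260 genes above 0, against 21278 to 23213 in WT. Only Ednrb-/- replicate 4, with 2184 and 23240, did not. The part of this difference between the groups in the results below was not tested. The counts of changed genes over all genes, the 8 genes and the pooled pathway lists are also given without Ednrb-/- replicates 2 and 3. Over all genes tested 2956 changed (limma, Benjamini-Hochberg adjusted p under 0.05), 990 higher and 1966 lower in Ednrb-/-, or 1603 and 1730 under quantile normalization. Leaving out Ednrb-/- replicates 2 and 3 gave 1383 genes. Leaving out a single WT library gave 2936 (replicate 1), 3240 (replicate 2), 1898 (replicate 3), 1912 (replicate 4) or 1902 (replicate 5).

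Of the 8 genes, 5 fell in Ednrb-/- explants, namely Tnfrsf10b, Tnfrsf1a, Casp8, Cflar and Ripk1, and 0 rose (limma and voom alike, 0 also at an unadjusted p under 0.05). Fas, Fadd and Casp9 did not pass. Among all genes tested 13.0% fell, 6.53% rose and 19.5% changed in either direction by the same rule. Fold changes are differences of log2(FPKM + 0.5), with WT subtracted from Ednrb-/-. Their median was -1.16 over the 8 genes and 0.0048 over all genes tested. For Tnfrsf10b, Tnfrsf1a, Ripk1 and Casp8 every Ednrb-/- library lay below every WT library, which held for 8.44% of all genes tested. Without Ednrb-/- replicates 2 and 3 the count was 4, Cflar being the gene that passed no longer (limma, adjusted p = 0.0575). Over all genes, 1383 of 14830 then changed, 1092 of them lower. In whole explants, fewer cells of a type and less RNA per cell cannot be told apart.

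**Figure D1:**
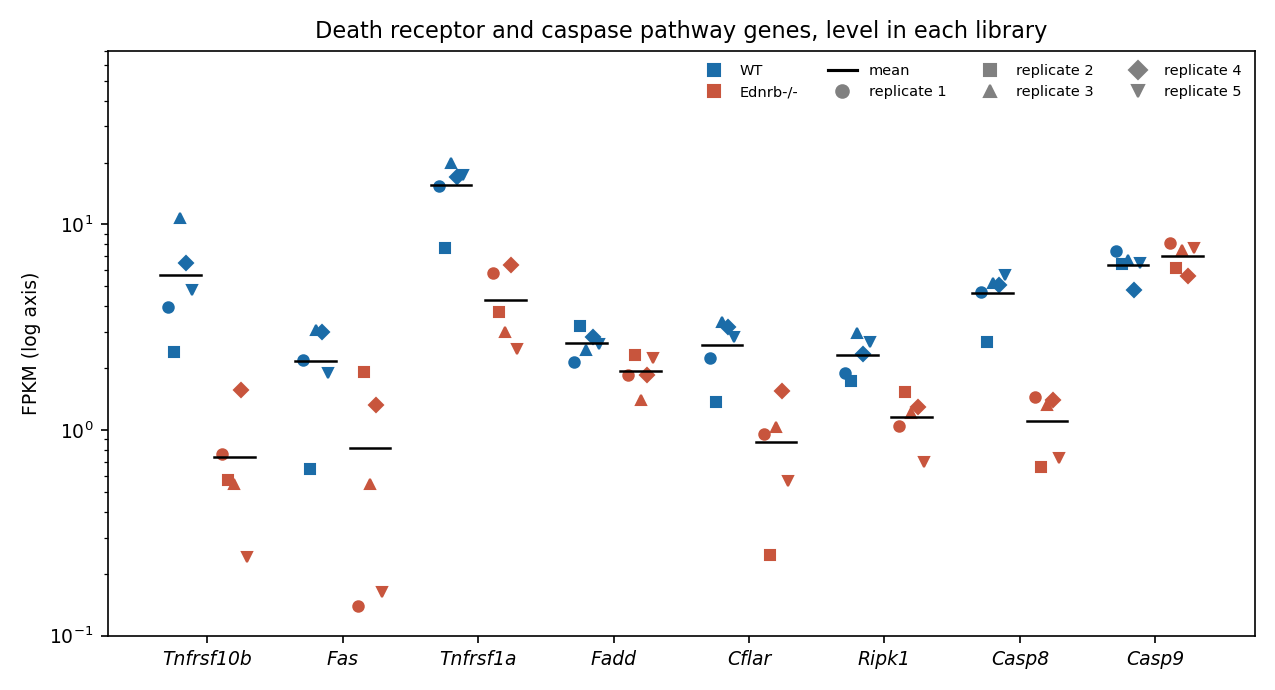
FPKM (log axis) of the 8 genes in each of the 5 WT (blue) and 5 Ednrb-/- (red) libraries; marker shapes give the replicate number and black lines the group means. The red points of Tnfrsf10b, Tnfrsf1a, Ripk1 and Casp8 all lie below the blue ones, and those of Casp9 overlap them.

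Levels of cell type marker genes differed between the genotypes in the same libraries. The summed level of the 10 smooth muscle markers, led by Acta2, Tagln and Myl9, ran from 318 to 2436 FPKM in WT and from 43.6 to 272 FPKM in Ednrb-/- libraries, and all 8 of those tested fell. The 12 mesenchyme markers summed to between 117 and 649 FPKM in WT and between 43.7 and 127 FPKM in Ednrb-/-, with 9 of 10 tested genes lower and 1, Dcn, higher. The 10 neuron markers in the table summed to between 955 and 1295 FPKM in WT and between 1615 and 1816 FPKM in Ednrb-/-, and all 10 rose. The 8 melanocyte markers summed to between 37.7 and 153 FPKM in WT and between 10.5 and 14.9 FPKM in Ednrb-/-, with 5 of 6 tested genes lower. The 6 neural progenitor markers summed to between 321 and 560 FPKM in WT and between 561 and 696 FPKM in Ednrb-/-, with 1 gene higher and 1 lower. The part of these differences in the results below was not tested.

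Blood and vessel markers were scarce. The 8 macrophage and blood markers summed to at most 2.51 FPKM in any library, Itgam and C1qa being listed at 0 in every library, and the only one tested, Cd68, did not pass. The 6 endothelial markers summed to between 1.07 and 9.99 FPKM in WT and between 0.380 and 1.5004 FPKM in Ednrb-/-. The only endothelial marker tested, Kdr, fell, while the defining genes Pecam1, Cdh5 and Vwf had group means of at most 0.193 FPKM.

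**Figure D2:**
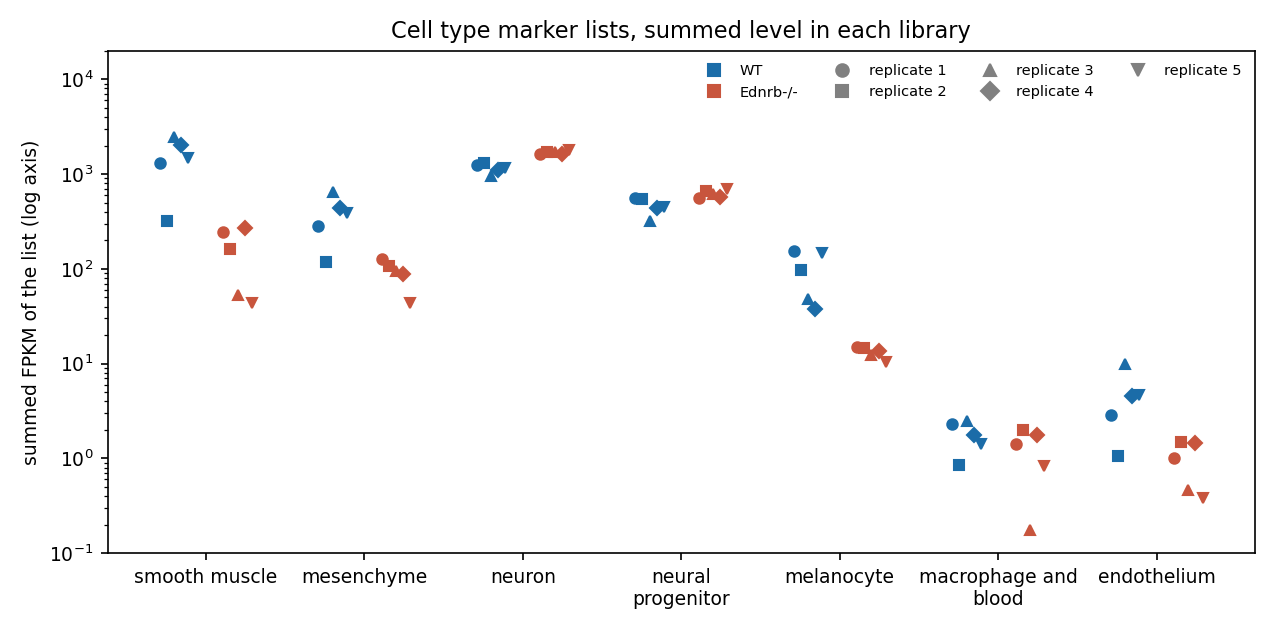
Summed FPKM (log axis) of each cell type marker list in each WT (blue) and Ednrb-/- (red) library; shapes give the replicate number. Smooth muscle sums reach 2436 FPKM in WT and 272 FPKM in Ednrb-/-, neuron sums are higher in Ednrb-/-, and macrophage and blood sums stay at or below 2.51 FPKM.

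Tnfrsf10b, the gene of the mouse death receptor for TRAIL, had the largest fall of the 8. The deposited table places it (MGP_C57BL6NJ_G0021929) at 67252475 to 67270642 of chromosome 14, plus strand. Gene positions here follow that table, whose identifiers point to an assembly of the C57BL/6NJ strain. Its FPKM was 3.97, 2.40, 10.7, 6.52 and 4.81 in WT replicates 1 to 5, while the Ednrb-/- replicates, in the same order, had 0.769, 0.570, 0.548, 1.57 and 0.240. The groups did not overlap, with WT replicate 3 highest and Ednrb-/- replicate 5 lowest. Group means were 5.67 ± 3.16 and 0.740 ± 0.503 FPKM (SD, n = 5 each), 7.66 times higher in WT, and the log2 fold change was -2.25 with a standard error of 0.36 (limma, adjusted p = 0.00329). Between 11 and 451 reads stood behind these values.

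Tnfrsf1a, which encodes the main receptor for tumour necrosis factor, was the most abundant of the 8 genes in WT explants and also fell. The gene (MGP_C57BL6NJ_G0031731, chromosome 6, 132099144 to 132112306, plus strand) had 15.4, 7.71, 19.9, 17.1 and 17.4 FPKM in WT replicates 1 to 5 and 5.81, 3.76, 3.01, 6.36 and 2.47 FPKM in Ednrb-/- replicates 1 to 5. WT replicate 2 lay well below the other WT libraries but above every Ednrb-/- library. Group means were 15.5 ± 4.63 and 4.28 ± 1.72 FPKM (SD, n = 5 each), 3.61 times higher in WT, with a log2 fold change of -1.75 and a standard error of 0.29 (limma, adjusted p = 0.00348).

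Fas, the receptor gene of FAS ligand, was lower on average in Ednrb-/- explants but did not pass. The gene (MGP_C57BL6NJ_G0025471, chromosome 19, 33974321 to 34011963, plus strand) had 2.19, 0.646, 3.07, 2.99 and 1.89 FPKM in WT replicates 1 to 5 and 0.140, 1.92, 0.546, 1.33 and 0.163 FPKM in Ednrb-/- replicates 1 to 5. The groups overlapped, because WT replicate 2 was low and Ednrb-/- replicates 2 and 4 were high. These values rest on only 5 to 88 reads, and the log2 fold change of -1.11 had a 95% interval from -2.05 to -0.16 (limma, adjusted p = 0.0953). It passed without WT replicate 2 (limma, adjusted p = 0.0325), without Ednrb-/- replicate 2 (0.0427) and with array weights (0.00583), so the call for Fas rests on single libraries.

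None of the 6 ligand genes of the family examined reached the level for testing, and the genes of ligands that bind the receptors above had few reads in both genotypes. Tnfsf10, the TRAIL gene, had at most 0.0297 FPKM and 3 reads in any library, and Tnf at most 0.0452 FPKM and 1 read. Fasl, the FAS ligand gene, had at most 0.357 FPKM and 9 reads, and Lta, which encodes lymphotoxin alpha, at most 0.388 FPKM and 7 reads. The other two ligands bind other receptors of the family. Tnfsf12, the gene of TWEAK, ran from 0.400 to 1.13 FPKM in WT and from 0 to 0.568 FPKM in Ednrb-/-. Tnfsf15, the gene of TL1A, was the one ligand whose groups did not overlap: its FPKM was 0.420, 0.194, 1.70, 0.534 and 0.446 in WT replicates 1 to 5, against 0.0608, 0, 0, 0.0740 and 0 in the Ednrb-/- replicates. The gene lay below the filter. With no filter, over 28144 genes, Tnfsf15 had a log2 fold change of -1.02 (limma, adjusted p = 0.0377), and the other 5 ligand genes did not pass (limma, adjusted p from 0.156 to 0.947). That fit was not repeated with libraries left out, so its dependence on WT replicate 3 or on the Ednrb-/- replicates at 0 was not tested.

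Fadd, the adaptor that links death receptors to caspase-8, had a mean 1.37 times higher in WT but did not pass. The gene (MGP_C57BL6NJ_G0033782, chromosome 7, 155358393 to 155363530, minus strand) had 2.15, 3.20, 2.45, 2.84 and 2.61 FPKM in WT replicates 1 to 5 and 1.85, 2.33, 1.40, 1.86 and 2.23 FPKM in Ednrb-/- replicates 1 to 5. The groups overlapped, and WT replicate 2, low for most of the other genes, was the highest library for Fadd. Its log2 fold change was -0.38 with a 95% interval from -0.71 to -0.04 (limma, adjusted p = 0.113). The span of the gene, introns included, overlaps that of the antisense RNA gene Faddos over 4187 bases, and overlap of exons was not checked. Use of strand in counting is not stated, so reads of the pair may not be told apart. Faddos itself had group means of 0.220 and 0.187 FPKM.

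Ripk1, the kinase that acts at the TNFR1 complex both as a survival scaffold and as a trigger of cell death, fell as well, its mean being 2.02 times higher in WT. The gene (MGP_C57BL6NJ_G0020829, chromosome 13, 33175920 to 33213061, plus strand) had 1.90, 1.74, 2.98, 2.34 and 2.68 FPKM in WT replicates 1 to 5 and 1.05, 1.53, 1.21, 1.29 and 0.699 FPKM in Ednrb-/- replicates 1 to 5. The groups did not overlap, although Ednrb-/- replicate 2 came close to WT replicate 2. The log2 fold change was -0.78 with a standard error of 0.19 (limma, adjusted p = 0.0158). Its span, introns included, overlaps that of Serpinb6a on the other strand over 432 bases. Serpinb6a went from a mean of 8.34 FPKM in WT to 2.48 FPKM in Ednrb-/-. The span also overlaps pseudogene models over 1366 and 2108 bases, with group means of at most 0.311 FPKM. Whether exons overlap was not checked, and how shared reads were counted is not stated.

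Casp8, the initiator caspase of the death receptor pathway, had the lowest p of the 8 genes. The gene (MGP_C57BL6NJ_G0016449, chromosome 1, 61066741 to 61112266, plus strand) had 4.72, 2.68, 5.17, 5.05 and 5.66 FPKM in WT replicates 1 to 5 and 1.45, 0.663, 1.32, 1.40 and 0.732 FPKM in Ednrb-/- replicates 1 to 5. Every Ednrb-/- library lay below the lowest WT library, replicate 2. Group means were 4.66 ± 1.15 and 1.11 ± 0.383 FPKM (SD, n = 5 each), 4.18 times higher in WT, and the log2 fold change was -1.68 with a standard error of 0.23 (limma, adjusted p = 0.00276). Between 25 and 239 reads stood behind these values.

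Cflar, the inhibitor gene, lies next to Casp8 on the same strand, 48745 bases upstream of it, and fell too. The gene (MGP_C57BL6NJ_G0016448, chromosome 1, 60972615 to 61017995) had 2.25, 1.37, 3.36, 3.16 and 2.85 FPKM in WT replicates 1 to 5 and 0.958, 0.248, 1.04, 1.55 and 0.565 FPKM in Ednrb-/- replicates 1 to 5. The groups overlapped in 1 place, where Ednrb-/- replicate 4 exceeded WT replicate 2. Group means were 2.60 ± 0.806 and 0.871 ± 0.494 FPKM (SD, n = 5 each), with a log2 fold change of -1.21 and a standard error of 0.29 (limma, adjusted p = 0.0144). Ednrb-/- replicate 2, one of the libraries that stood apart, held 41 reads of the gene, against 122 to 320 in the other Ednrb-/- libraries.

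Casp9, the initiator caspase of the mitochondrial pathway, was the only one of the 8 with a higher mean in Ednrb-/- explants, and it did not pass. The gene (MGP_C57BL6NJ_G0029483, chromosome 4, 149936636 to 149958120, plus strand) had 7.43, 6.44, 6.74, 4.78 and 6.53 FPKM in WT replicates 1 to 5 and 8.16, 6.11, 7.53, 5.62 and 7.67 FPKM in Ednrb-/- replicates 1 to 5. The groups overlapped over most of their range. The log2 fold change was 0.13 with a 95% interval from -0.18 to 0.43 (limma, adjusted p = 0.569), and 406 to 840 reads stood behind the values.

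**Figure D3:**
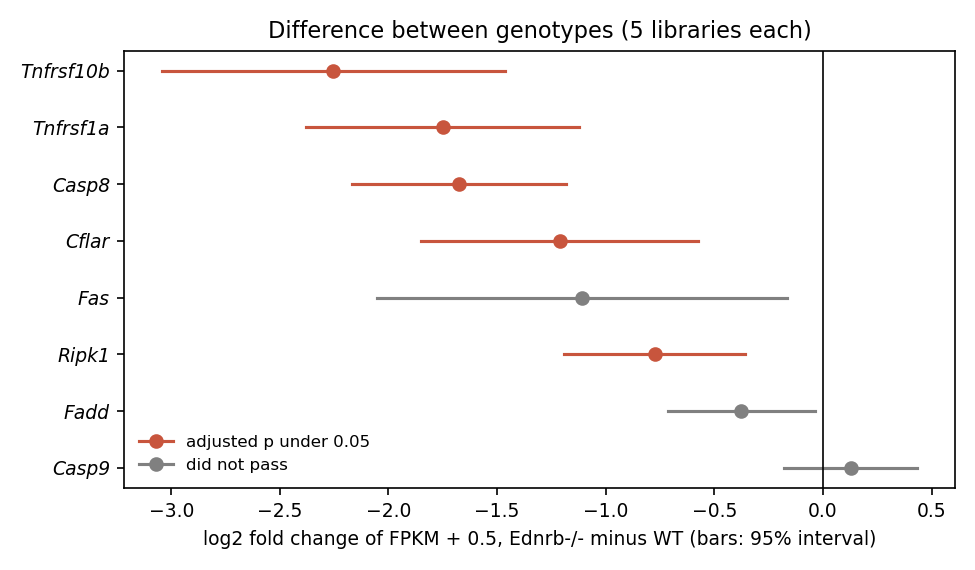
Log2 fold change of FPKM + 0.5 (x axis, Ednrb-/- minus WT) of each of the 8 genes with its 95% interval from limma; red marks genes with an adjusted p under 0.05 and grey the others. Estimates run from -2.25 for Tnfrsf10b to 0.13 for Casp9.

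RefSeq's promoter table (build GRCm38.p6) held 7 of the 8 genes by symbol. The 250 bases before the start are shown for the adjacent pair Casp8 and Cflar, which fell, for Casp9, which did not pass, and for Fas and Ripk1, the genes with a motif match, in capitals, within that window. The windows are chr1:58802252-58802501 for Casp8, chr1:58711241-58711490 for Cflar, chr4:141793362-141793611 for Casp9, chr19:34290409-34290658 for Fas and chr13:34002113-34002362 for the first of 2 listed starts of Ripk1, all on the plus strand.
Casp8: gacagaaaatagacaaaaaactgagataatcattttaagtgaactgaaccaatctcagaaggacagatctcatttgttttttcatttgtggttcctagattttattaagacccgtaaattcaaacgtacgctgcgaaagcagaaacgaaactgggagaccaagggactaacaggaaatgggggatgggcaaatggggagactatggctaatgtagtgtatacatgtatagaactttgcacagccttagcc
Cflar: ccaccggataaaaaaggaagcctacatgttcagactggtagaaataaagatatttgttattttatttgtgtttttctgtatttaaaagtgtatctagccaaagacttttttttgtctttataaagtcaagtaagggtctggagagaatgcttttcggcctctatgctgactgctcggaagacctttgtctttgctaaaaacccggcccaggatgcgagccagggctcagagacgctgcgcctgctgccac
Casp9: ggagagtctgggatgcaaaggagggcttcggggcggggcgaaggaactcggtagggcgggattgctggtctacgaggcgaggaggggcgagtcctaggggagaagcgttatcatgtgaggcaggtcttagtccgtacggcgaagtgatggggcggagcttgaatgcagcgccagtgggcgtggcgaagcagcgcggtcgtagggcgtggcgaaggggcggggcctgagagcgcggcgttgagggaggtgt
Fas: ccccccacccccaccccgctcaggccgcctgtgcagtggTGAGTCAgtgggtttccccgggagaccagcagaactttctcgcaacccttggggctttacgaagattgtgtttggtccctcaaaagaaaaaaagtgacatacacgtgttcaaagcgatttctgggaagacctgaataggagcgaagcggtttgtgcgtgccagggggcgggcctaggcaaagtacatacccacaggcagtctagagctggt
Ripk1: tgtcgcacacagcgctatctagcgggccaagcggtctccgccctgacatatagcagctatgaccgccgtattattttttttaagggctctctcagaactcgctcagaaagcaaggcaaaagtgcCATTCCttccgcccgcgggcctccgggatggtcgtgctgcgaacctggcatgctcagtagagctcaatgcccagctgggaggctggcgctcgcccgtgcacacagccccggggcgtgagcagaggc
The windows of Casp8 and Cflar had 39.6% and 42.8% G or C, and that of Casp9 had 66.0%. On both strands, 6 motifs were searched: TGANTCA (AP-1), GGAATG (TEAD), the interferon-stimulated response element (GAAA and GAAA with any 2 bases between them) and, by their degenerate consensus, the NF-kB site, the p53 half-site and the CArG box. Fas had 1 AP-1 match, TGAGTCA, a sequence found by its pattern in 6.75% of 32851 promoter windows of the same length. Ripk1 had 1 TEAD match on the minus strand, read as CATTCC on the plus strand, a pattern found in 12.6% of windows. The windows of Casp8, Cflar, Casp9, Tnfrsf1a and Fadd held none of the 6 patterns, which occurred in 1.47% (CArG box), 2.98% (interferon element), 7.13% (p53 half-site) and 7.25% (NF-kB) of all windows, beside the shares above. A match describes letters only.

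The order of the mean levels differed between the genotypes. In WT explants Tnfrsf1a was highest at 15.5 FPKM, followed by Casp9 (6.38), Tnfrsf10b (5.67), Casp8 (4.66), Fadd (2.65), Cflar (2.60), Ripk1 (2.33) and Fas (2.16). Only the step from Tnfrsf1a to Casp9 exceeded the spread, as the ranges of every other pair of neighbours overlapped. In Ednrb-/- explants Casp9 led at 7.02 FPKM, followed by Tnfrsf1a (4.28), Fadd (1.94), Ripk1 (1.15), Casp8 (1.11), Cflar (0.871), Fas (0.820) and Tnfrsf10b (0.740). There only the step from Tnfrsf1a to Fadd had ranges that did not overlap. By mean level Tnfrsf10b ranked 3 in WT and 8 in Ednrb-/- explants, but single libraries often gave another order. Tnfrsf10b exceeded Casp8, the next gene in the WT order, in only 2 of 5 WT libraries. Fas, placed just above Tnfrsf10b in Ednrb-/-, exceeded it in only 1 of 5 Ednrb-/- libraries.

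The balance between the initiator caspase genes differed by genotype. The ratio of Casp8 to Casp9 FPKM was 0.636, 0.416, 0.766, 1.06 and 0.867 in WT replicates 1 to 5 and 0.178, 0.108, 0.175, 0.250 and 0.0954 in Ednrb-/- replicates 1 to 5. Every Ednrb-/- library lay below every WT library, and the mean log2 ratio fell by 2.23 (two-sided exact permutation test, p = 0.00794, which is the lowest value possible with 5 libraries a group, and 0.0159 adjusted over 2 ratios). The ratio of the inhibitor gene to its partner, Cflar to Casp8, was 0.478, 0.510, 0.651, 0.626 and 0.503 in WT and 0.661, 0.373, 0.784, 1.10 and 0.772 in Ednrb-/- replicates 1 to 5. Its groups overlapped through Ednrb-/- replicate 2, and the mean log2 ratio differed by 0.34 (exact permutation test, p = 0.27, also 0.27 adjusted). These ratios use FPKM with no pseudocount. With 0.5 FPKM added, as for the fold changes, the Cflar to Casp8 difference was 0.46 (exact p = 0.0238). Without Ednrb-/- replicate 2 the difference, with no pseudocount, was 0.57 (exact p = 0.0159), without Ednrb-/- replicates 2 and 3 it was 0.59 (exact p = 0.0357), and without Ednrb-/- replicate 4 it was 0.18 (exact p = 0.54). Both ratios were chosen after values were seen, when Casp8 was known to be apart and Casp9 to overlap. The test of Casp8 to Casp9 therefore restates the fall of Casp8 and adds no separate support.

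**Figure D4:**
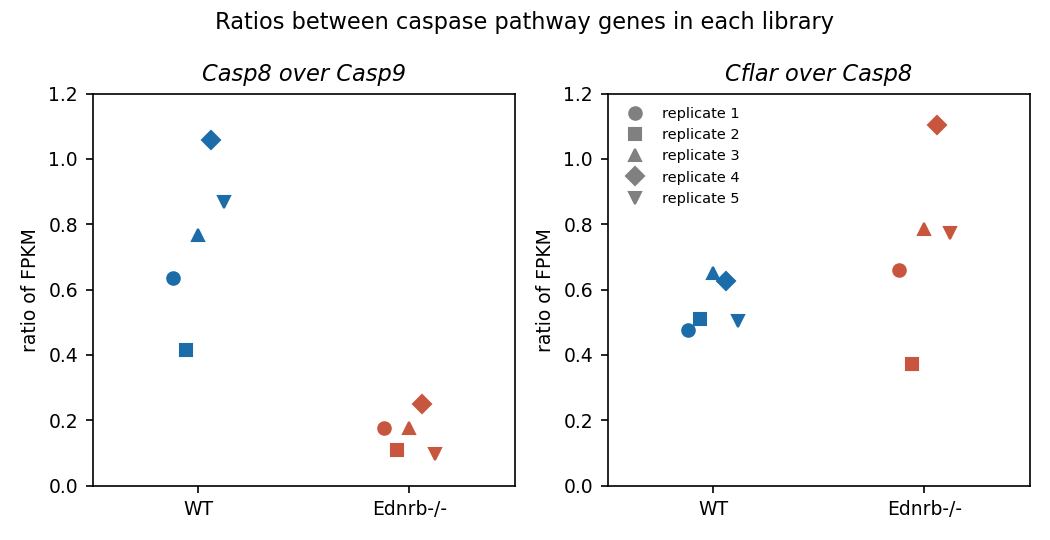
Ratio of FPKM in each library, Casp8 to Casp9 (left) and Cflar to Casp8 (right), for WT (blue) and Ednrb-/- (red); shapes give the replicate number. On the left the groups are apart, from 0.416 upward in WT and up to 0.250 in Ednrb-/-, and on the right they overlap through Ednrb-/- replicate 2 at 0.373.

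Libraries of 1 genotype also differed from each other in these genes. WT replicate 2 was the lowest WT library for 6 of the 8 genes, all but Fadd and Casp9, and WT replicate 3 was the highest for 5. WT replicate 2 also had the lowest smooth muscle sum of the WT libraries, 318 FPKM, and WT replicate 3 the highest, 2436 FPKM. The mesenchyme, endothelial and blood marker sums had the same lowest and highest WT libraries. Neuron sums had the reverse, 1295 FPKM in WT replicate 2 and 955 FPKM in WT replicate 3. The melanocyte and neural progenitor sums were highest in WT replicate 1. The part of cell makeup in this order was not tested. Among Ednrb-/- libraries, replicate 4 was highest for Tnfrsf10b, Tnfrsf1a and Cflar, replicate 2 for Fas, Fadd and Ripk1, and replicate 1 for Casp8 and Casp9. Replicate 5 was lowest for Tnfrsf10b, Tnfrsf1a and Ripk1, replicate 2 for Casp8 and Cflar, replicate 1 for Fas, replicate 3 for Fadd and replicate 4 for Casp9. The smooth muscle sum was highest in replicate 4, at 272 FPKM, and lowest in replicate 5, at 43.6 FPKM.

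After the mean of each genotype was removed, the log2 levels of Casp8 and Cflar had a Pearson correlation of 0.90 over the 10 libraries, and those of Tnfrsf10b and Tnfrsf1a of 0.87. Fadd had a negative correlation with every other of the 8 genes, with -0.71 against Casp8 and -0.60 against Cflar, and Casp9 had 0.02 with Casp8. The tested protein-coding genes most like each gene by this measure were Gxylt2 (0.99), Thbd (0.99) and Col8a1 (0.99) for Tnfrsf1a, Epha2 (0.97), Ifi30 (0.97) and Gpc4 (0.97) for Tnfrsf10b, and Ext1 (0.96), Bak1 (0.96) and Nfe2l2 (0.95) for Casp8. For Cflar they were Smarcd2 (0.98), Plekhg3 (0.97) and Creg1 (0.96), for Ripk1 Zdhhc21 (0.98), Tpp2 (0.97) and Wasl (0.97), and for Fas Snx14 (0.97), Rab32 (0.97) and Erich6 (0.96). The nearest genes to Fadd were Epor (0.94), Tmem186 (0.92) and Vegfb (0.91), and those to Casp9 Tbc1d30 (0.95), Arrdc4 (0.90) and Diras1 (0.88). These are the highest of very many correlations over 10 points that share depth and cell makeup, and they describe these libraries only.

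The wider pathway was examined through 13 lists with 133 genes besides the 8, of which 104 were tested. Of these, 23 fell (22.1%) and 3 rose (2.88%), against 13.0% and 6.53% of all genes, with a median log2 fold change of -0.16. Without Ednrb-/- replicates 2 and 3 the counts were 11 and 1 of 104, against 1092 and 291 of 14830 over all genes. The list medians ran from -2.59 for necroptosis, with 1 gene, to 0.02 for the anti-apoptotic genes.

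**Figure D5:**
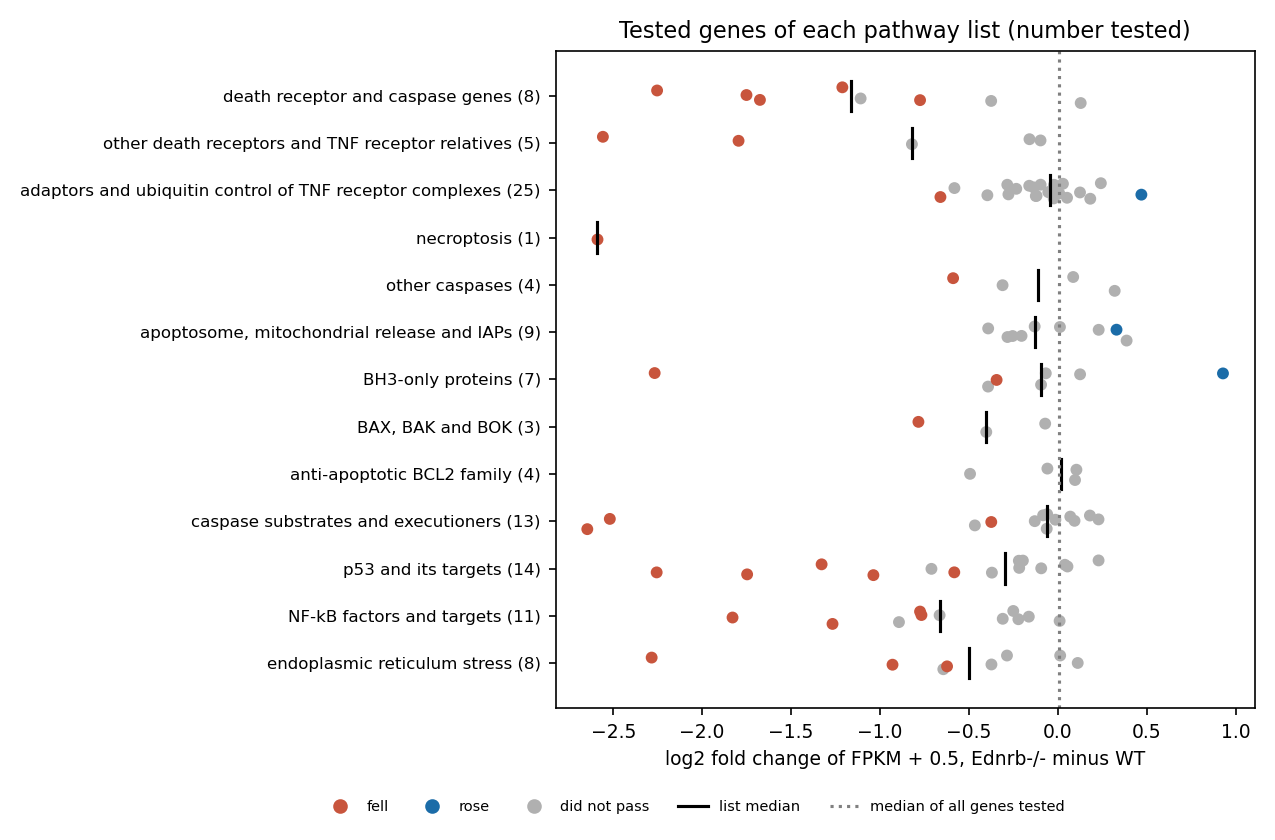
Log2 fold change (x axis, Ednrb-/- minus WT) of each tested gene, by list with the number tested; red marks genes that fell, blue those that rose, grey those that did not pass, black bars list medians and the dotted line the median of all genes. The 25 adaptor genes cluster near 0 with a median of -0.05, whereas the 8 death receptor and caspase genes have a median of -1.16.

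Among other receptors of the family, 2 of 5 tested genes fell and the other 3 did not pass, with a median of -0.82. Tnfrsf12a, the TWEAK receptor gene, went from 80.7 ± 44.4 to 12.8 ± 7.26 FPKM (SD, n = 5; limma, adjusted p = 0.0093, and 0.0565 without Ednrb-/- replicates 2 and 3). Tnfrsf11b, which encodes osteoprotegerin, a soluble decoy for TRAIL, went from 2.64 ± 1.63 to 0.311 ± 0.295 FPKM (limma, adjusted p = 0.0205). Tnfrsf11b passed no longer without WT replicate 3 (0.0559), WT replicate 4 (0.0571) or Ednrb-/- replicate 5 (0.0507), without Ednrb-/- replicates 2 and 3 (0.105), or by voom (0.071). Eda2r, a receptor induced by p53, had 8.87 and 4.93 FPKM (limma, adjusted p = 0.108; 0.0347 without WT replicate 2 and 0.0223 without Ednrb-/- replicate 4). The other death domain receptor genes Tnfrsf21 (26.5 and 23.6 FPKM) and Ngfr (45.5 and 42.6 FPKM), named after their values were seen, did not pass.

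Of 25 tested adaptor and ubiquitin control genes, the machinery that assembles on TNFR1 and decides between NF-kB and death, 1 fell and 1 rose, with a median of -0.05. Tnip1, an inhibitor of NF-kB signalling, went from 5.97 ± 0.457 to 3.66 ± 0.858 FPKM (SD, n = 5; limma, adjusted p = 0.0106). Birc2, the ubiquitin ligase cIAP1 that modifies RIPK1, rose from 10.7 ± 1.60 to 15.0 ± 1.42 FPKM (limma, adjusted p = 0.013, and 0.0845 without Ednrb-/- replicates 2 and 3). Tab2, an adaptor of the kinase TAK1, had 32.3 and 26.6 FPKM (limma, adjusted p = 0.0959; 0.0297 without WT replicate 1). Ripk3, the kinase that with RIPK1 triggers necroptosis when caspase-8 is blocked, was the only necroptosis gene tested. It had 5.10, 2.11, 12.1, 10.7 and 9.58 FPKM in WT and 2.39, 0.469, 0, 2.97 and 0.0299 FPKM in Ednrb-/- replicates 1 to 5, and fell with a log2 fold change of -2.59 (limma, adjusted p = 0.0143, and 0.0945 without Ednrb-/- replicates 2 and 3). Mlkl, the effector below it, named after its values were seen, had group means of 0.175 and 0.143 FPKM.

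Among the other caspase genes, Casp6 had 3.48 and 2.73 FPKM, with groups that did not overlap but an adjusted p of 0.129 by limma, and Casp2, which responds to cell division errors, had 8.41 and 8.96 FPKM (0.572).

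The inflammatory caspase genes were low and below the filter. Casp1 ran from 0.327 to 0.648 FPKM in WT and from 0 to 0.164 FPKM in Ednrb-/-, Casp4 from 0.147 to 0.280 and from 0 to 0.0828 FPKM, and Casp12 from 0.488 to 1.64 and from 0 to 0.320 FPKM. For all 3 the groups did not overlap, on at most 16, 14 and 85 reads per library. With no filter Casp1, Casp4 and Casp12 fell (limma, adjusted p = 0.00989, 0.0119 and 0.0152), as did 1882 of 28144 genes in that fit. In Ednrb-/- replicates 2 and 3 Casp1 and Casp4 were at 0, and Casp12 was at 0.06 and 0 FPKM. The fit with no filter was not repeated without these 2 libraries. Casp14, a caspase of skin differentiation, had at most 6 reads and did not pass (0.3).

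In the mitochondrial branch, most genes did not pass. Of 9 apoptosome and inhibitor genes, 1 rose: Diablo, whose product blocks inhibitor of apoptosis proteins, from 8.65 ± 1.05 to 10.95 ± 0.632 FPKM (SD, n = 5; limma, adjusted p = 0.035). Diablo passed no longer without any 1 of WT replicates 3, 4 and 5 or Ednrb-/- replicates 1, 2, 3 and 5 (adjusted p from 0.0514 to 0.0935), without both Ednrb-/- replicates 2 and 3 (0.147) or under TPM rescaling (0.0695). Cycs, the cytochrome c gene, had 20.8 and 27.1 FPKM (limma, adjusted p = 0.138), and Htra2, a mitochondrial protease, 11.5 and 8.66 FPKM (0.088; 0.0292 without Ednrb-/- replicate 4).

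Of 7 BH3-only genes, the sensors that start mitochondrial apoptosis, 2 fell and 1 rose. Pmaip1, the p53 target NOXA, fell from 26.4 ± 13.3 to 4.96 ± 3.13 FPKM (SD, n = 5; limma, log2 fold change -2.27, adjusted p = 0.00948, and 0.0754 without Ednrb-/- replicates 2 and 3). Hrk, a BH3-only gene of neurons, rose from 1.57 ± 0.343 to 3.46 ± 0.793 FPKM with no overlap of groups (limma, log2 fold change 0.93, adjusted p = 0.00546). Bcl2l11, the gene of BIM, went from 4.39 ± 0.300 to 3.35 ± 0.256 FPKM (limma, adjusted p = 0.038). Bcl2l11 passed no longer without any 1 library other than Ednrb-/- replicate 2 (adjusted p from 0.0523 to 0.0903), without both Ednrb-/- replicates 2 and 3 (0.0675), or under quantile normalization (0.206), TPM rescaling (0.0546) or no filter (0.055).

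Of the pore-forming genes, Bak1, whose product permeabilizes mitochondria, fell from 15.4 ± 1.95 to 8.76 ± 1.33 FPKM with no overlap (limma, log2 fold change -0.78, adjusted p = 0.00329). Bax, its partner, had 162 ± 21.9 and 155 ± 26.7 FPKM (SD, n = 5; limma, adjusted p = 0.758), and Bok 6.54 and 4.90 FPKM (0.103). Of 4 anti-apoptotic genes tested 0 passed (limma; 1, Bcl2, at an unadjusted p under 0.05, and the same gene by voom, adjusted p = 0.0215). Mcl1 had 73.3 and 70.3 FPKM, Bcl2l1 32.9 and 35.3 FPKM, and Bcl2 2.71 ± 0.186 and 1.81 ± 0.471 FPKM with no overlap (limma, adjusted p = 0.0505). Bcl2 passed under 7 of 21 alternatives. Among them were voom, leaving out Ednrb-/- replicate 2 (limma, adjusted p = 0.0234) and leaving out Ednrb-/- replicates 2 and 3 (0.0437).

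Among 13 caspase substrates and executioners of cell dismantling 3 fell. Lmna, the lamin A gene, and Gsn, the actin-severing gelsolin gene, fell from 23.0 ± 10.2 to 3.18 ± 1.86 FPKM and from 27.8 ± 12.1 to 4.40 ± 2.49 FPKM (SD, n = 5; limma, adjusted p = 0.00329 and 0.00384). Rock1, a kinase activated by caspase cleavage, went from 15.9 to 12.0 FPKM (limma, adjusted p = 0.0317). Rock1 passed no longer without any 1 of WT replicates 3, 4 and 5 or Ednrb-/- replicates 2, 3 and 5 (adjusted p from 0.0517 to 0.0864), or without both Ednrb-/- replicates 2 and 3 (0.124).

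In the list of p53 and its targets 5 of 14 genes fell and the other 9 did not pass, with a median of -0.30. They included Cdkn1a, the cell cycle inhibitor p21, from 80.5 ± 30.0 to 30.5 ± 9.40 FPKM, Phlda3, from 50.0 ± 17.7 to 16.2 ± 11.1 FPKM, and Perp, from 9.73 ± 4.87 to 1.80 ± 1.56 FPKM (SD, n = 5; limma, adjusted p = 0.00912, 0.0126 and 0.0106). Trp53, the p53 gene itself, named after its values were seen, had 27.9 and 21.5 FPKM (limma, adjusted p = 0.131). Cdkn1a and Phlda3 passed no longer without Ednrb-/- replicates 2 and 3 (0.0685 and 0.0812). Among NF-kB factors and targets 4 of 11 fell and the other 7 did not pass, with a median of -0.67: Rela went from 16.8 ± 2.44 to 9.78 ± 2.50 FPKM with no overlap, Nfkb2 from 5.65 ± 1.89 to 2.08 ± 1.02 FPKM and the adhesion gene Icam1 from 3.91 ± 1.71 to 0.757 ± 0.588 FPKM (limma, adjusted p = 0.0104, 0.00859 and 0.0089). Rela and Nfkb2 passed no longer without Ednrb-/- replicates 2 and 3 (0.0506 and 0.0586).

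In the list of endoplasmic reticulum stress, a state in which the factor CHOP can raise the TRAIL receptor, 3 of 8 genes fell and the other 5 did not pass, with a median of -0.50. Atf3, a stress-induced factor, fell from 8.74 ± 4.69 to 1.30 ± 0.581 FPKM, Ppp1r15a from 11.3 ± 3.71 to 5.53 ± 0.823 FPKM and the chaperone gene Hspa5 from 158 ± 28.4 to 101 ± 9.33 FPKM (SD, n = 5; limma, adjusted p = 0.00276, 0.00701 and 0.00862). Ppp1r15a passed no longer without Ednrb-/- replicates 2 and 3 (0.0518). Ddit3, the CHOP gene itself, named after its values were seen, had 12.9 and 13.7 FPKM (limma, adjusted p = 0.703).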

How the data were processed

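The deposited table gives FPKM per gene model for 10 libraries, 5 WT and 5 Ednrb-/-, matched to samples by genotype and replicate number, with 0 further sample columns. Tools listed in the submitters' processing notes are featureCounts 1.5.0-p3, HISAT2 2.0.5 and fastp, with mm10 as the build, whereas the gene identifiers belong to a C57BL/6NJ assembly. Use of strand in counting is not stated. FPKM times the deposited gene length was a whole multiple of 1 step in each library for 100% of values above 0, within 0.01 of a read. These recovered reads, 13022266 to 19532570 per library, served to state depth and for voom only.

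Genes with at least 0.5 FPKM in at least 5 libraries were tested on log2(FPKM + 0.5) by limma 3.58.1 in R 4.3.3, with a trend in the prior variance, no covariate and two-sided p values adjusted by Benjamini-Hochberg over 15156 genes at a threshold of 0.05. A fold change on this scale understates that of low genes. Ratios were tested by exact permutation over libraries. Limma p values set the difference between genotypes against the spread between these libraries, whose number of embryos is not stated. Alternatives were other scalings, pseudocounts and filters, no trend, array weights, voom, the replicate block and leaving out libraries. The fit was tested on simulated data in which genes varied independently, so shifts shared by many genes were not covered. The genes, lists and tests were chosen with earlier results of these data known. Named are the 8 genes, Ednrb, all ligands and other caspases, the 3 genes of lowest p in each other list, and the 3 genes most like each of the 8. Some genes that this rule names are not reported here. Of 133 listed pathway genes 127 were in the table. Within genotypes, log2 values of library pairs correlated at 0.925 to 0.979. Replicate numbers were not taken as pairs, since same-numbered libraries had correlations of their deviations from -0.16 to 0.15.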

Additional observations from a re-analysis of the deposited data

Results flagged for a closer look

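In 8 of 104 groups of 5 libraries, 1 library lay far from the other 4, where chance flags about 1 in 20 groups; none concerned the 8 genes themselves. Ednrb-/- replicate 4 was that library in 5 of them, with 46.9 FPKM of Cdkn1a (23.5 to 28.8 in the others), 3.87 FPKM of Nfkb2 (1.39 to 1.89), 0.164 FPKM of Casp1 (0 to 0.0337), and 0.0375 FPKM of Tnf and 0.0264 FPKM of Casp14, both listed at 0 in the others. The Tnf and Casp14 values are 1 read each, and with the other 4 libraries at 0 any read meets this measure. Without such groups, 6 of 102 remain, 3 of them for Ednrb-/- replicate 4. WT replicate 1 was low for Tab2, at 26.1 FPKM (32.6 to 34.9 in the others), and for Bcl2l1, at 28.2 FPKM (33.5 to 34.4). WT replicate 3 was high for Tnfsf15, at 1.70 FPKM (0.194 to 0.534 in the others).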

How the results depend on the processing

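Tnfrsf10b, Tnfrsf1a and Casp8 fell under all 21 alternatives, with log2 fold changes from -2.96 to -1.86, from -1.98 to -1.60 and from -2.002 to -1.41. Cflar and Ripk1 fell under 20 of 21. Ripk1 passed no longer with the replicate number as a block (limma, adjusted p = 0.0616), a fit in which 1877 of all genes passed, 4 of the 8 genes and 21 of the pathway genes; the numbers gave no sign of pairing. Under that block Birc2 (0.0666), Diablo (0.0756), Bcl2l11 (0.115) and Rock1 (0.0995) passed no longer. Fadd passed only with array weights (limma, adjusted p = 0.0448), and Casp9 under none (limma, adjusted p from 0.159 to 0.893). Without 1 library at a time the count of changed genes ran from 1898 to 3240, that among the 8 genes from 5 to 6 and that among pathway genes from 19 to 30. Without both Ednrb-/- replicates 2 and 3, chosen after seeing the data, 1383 genes changed, and 12 pathway genes against 26; the cause was not separated from having fewer samples. The log2 fold change of Bax, -0.0718, ran from -0.149 to 0.0311 without 1 library at a time, the highest without Ednrb-/- replicate 2, and was 0.0570 without both. Fas rests on 5 to 88 reads per library. The part of depth in the results for Fas and the ligands was not tested.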
